A study of Homo sapiens with 6 samples.

Results

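Iron handling and ferroptosis genes were examined by RNA sequencing in MHCC97H, a human cell line established from hepatocellular carcinoma. The members were 10 genes, TFRC, SLC39A14, FTH1, FTL, NCOA4, IREB2, SLC40A1, HAMP, HMOX1 and ACSL4, found by gene symbol as 10 of the 58825 genes in the deposited table. The 6 libraries comprised 3 labelled shPTBP1, cells with a short hairpin RNA against the splicing factor PTBP1 and genotype PTBP1 Knockdown, and 3 labelled shControl, cells with a control hairpin and genotype WT. The labels do not say which hairpin the shPTBP1 libraries carry, or whether the 3 libraries of a group came from separate cultures, so p-values measure the spread between these libraries, which may be technical. Estimated counts summed to between 73728714 and 79955243 per shPTBP1 library and between 68704509 and 85317970 per shControl library.

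Cells take up iron bound to transferrin through the transferrin receptor, store it in ferritin shells, release it again when ferritin is degraded, and export it through ferroportin. Hepcidin, a hormone that hepatocytes secrete, removes ferroportin from the cell surface. Iron regulatory proteins sense the free iron pool and bind hairpins called iron-responsive elements in target mRNAs, which blocks translation when the hairpin lies in the 5′ untranslated region and stabilises the mRNA when hairpins lie in the 3′ untranslated region. Ferroptosis is a form of cell death driven by iron-dependent peroxidation of membrane phospholipids, and the liver, as the main iron store of the body, is a tissue in which both subjects are studied.

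Matches to the element are shown because some of the members searched had such a match in their mRNA sequence and others did not. The choice of genes did not use this property, and a match is a description of the sequence only. The search pattern was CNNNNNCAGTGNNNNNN on the sense strand of GENCODE 29 transcripts (GRCh38), in which the 5 bases before the 6-base loop had to pair with the 5 bases after it, with G to T pairs allowed, using for each gene the transcript with the longest coding sequence. FTH1, HMOX1 and SLC39A14 were not searched, so whether their mRNAs carry the element is not shown here. Among the other 7 members, FTL and SLC40A1 each had 1 match in the 5′ untranslated region and TFRC had 4 in the 3′ untranslated region, while ACSL4, HAMP, IREB2 and NCOA4 had 0. Hairpins that depart from this pattern and other transcripts of a gene were not searched. A count of 0 therefore does not show that the element is absent, and other counts may be incomplete. Each element is printed as 30 bases, with the loop in capitals.
FTL element (chr19:48965334-48965363, plus strand): tctcttgcttcaaCAGTGTttggacggaac
SLC40A1 element (chr2:189580661-189580690, minus strand): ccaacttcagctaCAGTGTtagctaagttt
TFRC element 1 (chr3:196050979-196051008, minus strand): taattatcggaagCAGTGCcttccataatt
TFRC element 2 (chr3:196050575-196050604, minus strand): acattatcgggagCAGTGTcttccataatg
TFRC element 3 (chr3:196050510-196050539, minus strand): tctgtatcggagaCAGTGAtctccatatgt
TFRC element 4 (chr3:196050463-196050492, minus strand): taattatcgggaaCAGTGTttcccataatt
The pattern was rare. It occurred in the first 250 bases of 21 of 19495 transcripts of protein-coding genes (0.108%). Of 3215 transcripts with a 3′ untranslated region at least as long as the 2659 bases of TFRC, 21 (0.653%) had a match within that distance of the stop codon, and 1, TFRC itself, had 4.

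The libraries were first checked against their labels. PTBP1 had 17.3, 16.9 and 18.0 FPKM (fragments per kilobase of transcript per 1e6 fragments) in shPTBP1 1, 2 and 3, against 21.2, 16.4 and 27.4 FPKM in shControl 1, 2 and 3, so the groups overlapped in the targeted gene (log2 fold change of shPTBP1 over shControl -0.29, standard error 0.18, abbreviated SE below, adjusted p = 0.953 in edgeR). Group names below therefore mean libraries as labelled. Only shControl 2 lay below the shPTBP1 libraries, while shControl 1 and 3 lay above all of them. The paper states that PTBP1 silencing in MHCC97H cells was checked by western blot and RT-qPCR, assays that are not part of these data. Hepatocyte markers were nearly absent. ALB, APOB, TTR and FGB, 4 of the 10 on the list, and the oncofetal marker AFP were at 0 in every library, and the 10 hepatocyte markers together reached 0.458 to 1.26 CPM (counts per 1e6) in shPTBP1 and 0.495 to 1.38 CPM in shControl. GPC3, the other oncofetal marker, had 8, 0 and 23 counts in shPTBP1 1, 2 and 3, against 0, 0 and 22 in shControl 1, 2 and 3. Transcripts of red cells split the libraries by number and not by label. The 13 red-cell markers summed to 850, 759 and 1.15 CPM in shPTBP1 1, 2 and 3, and to 1279, 800 and 1.32 CPM in shControl 1, 2 and 3. Of 12 markers of monocytes, macrophages and neutrophils, VSIG4, MARCO and MPO were at 0 in every library, and the summed level was 30.7 to 43.4 CPM in shPTBP1 and 21.7 to 38.2 CPM in shControl. Most of that sum was CD68 in number 3 (30.6 CPM in shPTBP1 3 and 21.5 CPM in shControl 3), while LYZ, with 6.07, 5.10 and 0 CPM in shPTBP1 and 9.20, 6.29 and 0 CPM in shControl, split the libraries as the red-cell markers did, and so did S100A8, S100A9, CSF3R and FCN1, each at 0 or under 0.1 CPM in number 3. Lymphocyte markers summed to at most 5.74 CPM in shPTBP1 and 4.68 CPM in shControl. The 4 markers of stroma and endothelium summed to 83.0 to 113.7 CPM in shPTBP1 and 91.1 to 112.5 CPM in shControl. Most of that was COL1A1, at 75.9 to 111.4 CPM in shPTBP1 and 89.8 to 105.9 CPM in shControl.

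TFRC and the 2 ferritin genes were among the most abundant transcripts of these cells, and the systemic export axis was close to silent. SLC39A14, the other uptake gene among the members, exceeded 91.2% of the genes tested in mean FPKM. On the FPKM scale, which divides by a length set for each gene, the order of mean levels over the 6 libraries was FTL (2367 FPKM), FTH1 (1266), TFRC (299.7), NCOA4 (67.3), SLC39A14 (23.7), IREB2 (13.2), ACSL4 (12.6), HMOX1 (10.5), SLC40A1 (0.0367) and HAMP (0.00167). Comparisons between genes on this scale depend on the lengths used, which need not be those of the mRNAs in these cells. FTL and FTH1 each exceeded 99.9% of the 19393 genes tested in mean FPKM, and TFRC exceeded 99.6%. These 3 transcripts together took 0.731%, 0.743% and 1.07% of all counts in shPTBP1 1, 2 and 3, against 0.980%, 0.799% and 0.621% in shControl 1, 2 and 3. The order from FTL to SLC39A14 was the same in 6 of 6 libraries. SLC39A14 exceeded IREB2 in 5 of 6 libraries, IREB2 exceeded ACSL4 in 3 of 6, and ACSL4 exceeded HMOX1 in 4 of 6, so the levels of these neighbours were not separated beyond the spread between libraries.

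**Figure D1:**
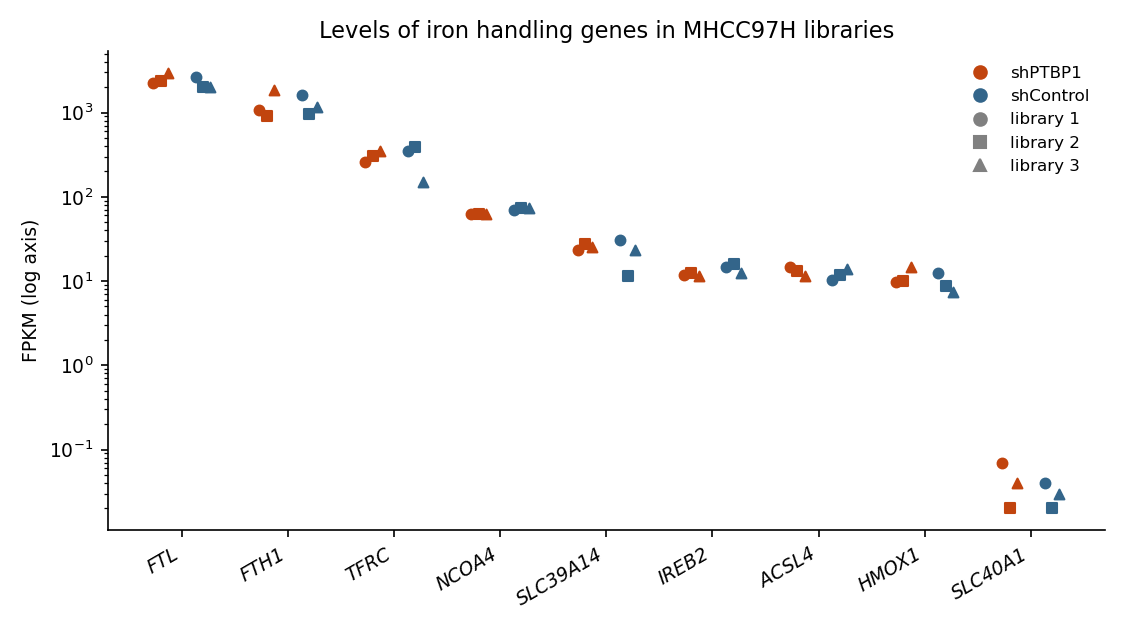
FPKM (log axis) of 9 iron handling genes in the 6 MHCC97H libraries, ordered by mean level, with 1 point per library, shPTBP1 left of shControl in each gene, and the shape giving the library number. FTL, FTH1 and TFRC lie above 100 FPKM in every library and SLC40A1 lies at 0.02 to 0.07 FPKM. HAMP, listed at 0 in 5 libraries, is not drawn.

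No member passed the threshold between the groups. Library sizes were adjusted by the trimmed mean of M-values (TMM) and each gene was tested by edgeR's quasi-likelihood F test, with p-values adjusted by the Benjamini-Hochberg method over all 19393 genes that passed the filter on low counts. Of the 10 members, 9 passed the filter and 0 had an adjusted p under 0.05 in edgeR, where 6 of all genes tested did (0.0309%; 4 higher in shPTBP1, 0.0206%, and 2 lower, 0.0103%). The count of members was also 0 in DESeq2, beside 0.753% of the genes to which it gave an adjusted p, and in limma on log2(FPKM + 1), beside 0.0749%. At an unadjusted p under 0.05 it was 0 in edgeR, beside 5.69% of all genes tested (3.58% higher and 2.11% lower), 0 in DESeq2, beside 4.42%, and 1 of 8 in limma (NCOA4), beside 6.91%. The log2 fold changes of the 9 ran from -0.25 (IREB2) to 0.51 (SLC40A1), with 7 positive and 2 negative values and a median of 0.15. Over all genes tested, 48.0% of values were positive and 52.0% negative, and the median was -0.01. The adjusted p-values of the 9 members in edgeR lay between 0.913 and 0.995. In bulk RNA, fewer cells of a type and less RNA per cell cannot be told apart.

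**Figure D2:**
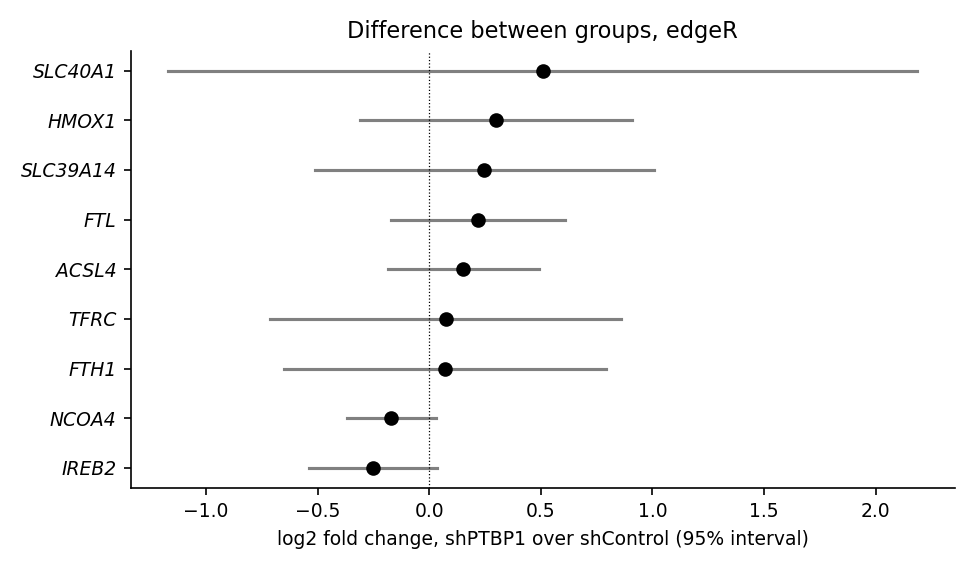
Log2 fold change (shPTBP1 over shControl) of the 9 iron handling genes tested, as points with 95% intervals from edgeR as lines (3 libraries per group), sorted by value. Every interval includes 0, and that of SLC40A1, at 7 to 30 counts per library, is the widest of the 9, from -1.17 to 2.19.

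TFRC encodes transferrin receptor 1, the entry route for transferrin-bound iron, and its gene spans 196027183 to 196082096 of chromosome 3 (hg38). TFRC had 2406, 2840 and 3328 CPM (TMM-normalized, as are all CPM below) in shPTBP1 1, 2 and 3, against 3227, 3548 and 1365 CPM in shControl 1, 2 and 3. The lowest and the highest of the 6 libraries were both shControl libraries, and shControl 3 stood apart from the other 5. The log2 fold change of TFRC was 0.08 (SE 0.33, 95% interval -0.71 to 0.86, adjusted p = 0.995 in edgeR), so that the data allow anything between 0.611-fold and 1.82-fold. Without shControl 3 the sign of this value turned to -0.25 (adjusted p = 0.451 in edgeR), and without shPTBP1 3 to -0.05. With number 3 of both groups left out, the libraries nearly free of red-cell transcripts, it was -0.37 (unadjusted p = 0.0270, adjusted p = 0.226 in edgeR). Within groups TFRC varied more than 94.9% of genes with a mean of at least 20 CPM.

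SLC39A14, or ZIP14, is a transporter that brings iron not bound to transferrin into liver cells, and its gene lies on chromosome 8. It had 193, 228 and 216 CPM in shPTBP1, against 255, 94.2 and 188 CPM in shControl. Here shControl 2 was the library that stood apart, at 94.2 CPM, and the 3 shPTBP1 libraries lay inside the range of shControl. For SLC39A14 the log2 fold change was 0.25 (SE 0.32, adjusted p = 0.982 in edgeR) and turned to -0.06 without shControl 2.

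FTH1 and FTL encode the heavy and light chains of ferritin; the heavy chain oxidises iron for storage and the light chain promotes formation of the mineral core. FTH1 (chromosome 11, 61959718 to 61967634) had 2610, 2187 and 4501 CPM in shPTBP1 1, 2 and 3, against 3903, 2261 and 2694 CPM in shControl 1, 2 and 3. FTL (chromosome 19, 48965309 to 48966879) had 2351, 2422 and 3158 CPM in shPTBP1, against 2724, 2074 and 2012 CPM in shControl. In both genes shPTBP1 3 was the highest library and shControl 1 the next, with the remaining libraries of both labels intermixed in FTH1, while in FTL shPTBP1 1 and 2 lay above shControl 2 and 3.

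The log2 fold change was 0.07 for FTH1 (SE 0.31, 95% interval -0.65 to 0.79, adjusted p = 0.995 in edgeR) and 0.22 for FTL (SE 0.17, 95% interval -0.17 to 0.61, adjusted p = 0.957 in edgeR). The value of FTH1 was -0.30 without shPTBP1 3 and -0.09 without shControl 2, and within the libraries numbered 1 and 2 it was -0.36 for FTH1 and -0.01 for FTL. The ratio of FTH1 to FTL on the FPKM scale was 0.482, 0.393 and 0.620 in shPTBP1 1, 2 and 3, against 0.623, 0.474 and 0.582 in shControl 1, 2 and 3. FTL was thus the higher mRNA in all 6 libraries on that scale. In CPM, which takes no account of length, FTH1 was the higher in every library except shPTBP1 2 (2187 against 2422 CPM). Which mRNA was more abundant therefore depends on the lengths used for FPKM. The level of FTH1 is uncertain where reads could also be placed on its copies. The table lists 25 genes named as FTH1 pseudogenes, whose counts summed to between 4.24% and 5.30% of those of FTH1 in shPTBP1 and between 4.27% and 6.31% in shControl. BEST1, which overlaps FTH1 on the other strand, had counts equal to 0.301% to 0.406% of those of FTH1 in shPTBP1 and 0.215% to 0.420% in shControl, and strand-specific counting is not stated. For FTL the 16 pseudogenes amounted to 0.134% to 0.163% in shPTBP1 and 0.136% to 0.175% in shControl. Red-cell markers summed to 1.15 CPM in shPTBP1 3, the library highest in both ferritin chains, and to 1279 CPM, their highest sum, in shControl 1, the next in both. The part of other cells in the ferritin levels was not tested.

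NCOA4 is the cargo receptor that delivers ferritin to lysosomes, a process called ferritinophagy, and lies on chromosome 10 from 46005088 to 46030714. It had 307, 305 and 310 CPM in shPTBP1 1, 2 and 3, against 339, 352 and 345 CPM in shControl 1, 2 and 3. NCOA4 was the only member whose groups did not overlap, with every shPTBP1 library below every shControl library, as in 5.46% of all genes tested (shPTBP1 lay above in 6.49%, and 11.9% did not overlap in either direction). The gap was small but the libraries of each group were close together, at 307 ± 2.81 CPM in shPTBP1 and 345.5 ± 6.67 CPM in shControl (SD, n = 3 each), and only 0.102% of genes with a mean of at least 20 CPM varied less within groups. The log2 fold change was -0.17, or 0.890-fold, with a SE of 0.08, an unadjusted p of 0.0833 and an adjusted p of 0.925 in edgeR, whose test draws the spread of each gene towards that of genes at its level. In limma on log2(FPKM + 1) the value was -0.19 with an unadjusted p of 0.0386 and an adjusted p of 0.711. It stayed between -0.20 and -0.15 under every alternative run.

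IREB2 encodes iron regulatory protein 2, one of the proteins that bind the elements shown above, and lies on chromosome 15 from 78437431 to 78498209. It had 152, 162 and 151 CPM in shPTBP1, against 192, 204 and 158 CPM in shControl. Only shControl 3 fell inside the range of the shPTBP1 libraries, and the other shControl libraries were above all 3 of them. The log2 fold change was -0.25 (SE 0.12, 95% interval -0.54 to 0.04, unadjusted p = 0.0768 and adjusted p = 0.913 in edgeR). It was -0.33 within the libraries numbered 1 and 2 (adjusted p = 0.171 in edgeR) and -0.35 without shControl 3 (adjusted p = 0.131 in edgeR). Within the libraries numbered 1 and 2, 3 of the 9 members, ACSL4, TFRC and IREB2, had an unadjusted p under 0.05 in edgeR and 0 an adjusted one, beside 17.7% and 0.319% of all genes in that fit.

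The export side was hardly expressed. SLC40A1 encodes ferroportin, the known cellular exporter of iron, and lies on chromosome 2 from 189560579 to 189583758. It had 0.378, 0.0901 and 0.208 CPM in shPTBP1 1, 2 and 3, against 0.190, 0.116 and 0.170 CPM in shControl 1, 2 and 3. These levels rest on 30, 7 and 15 counts in shPTBP1 and on 13, 10 and 12 counts in shControl, so the fitted log2 fold change of 0.51 (SE 0.71, adjusted p = 0.982 in edgeR) was not a detectable difference at this depth, and it was -0.09 without shPTBP1 1. HAMP, which encodes hepcidin, had 0 counts in all libraries except shControl 1, where it had 2. A limit of 3 counts corresponds to 0.0375 to 0.0407 CPM in shPTBP1 and 0.0352 to 0.0437 CPM in shControl, HAMP was below it in every library, and no fold change is given. This limit covers counting error only.

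HMOX1 encodes heme oxygenase 1, the inducible enzyme that releases iron from heme, and lies on chromosome 22 from 35380361 to 35390293. It had 27.0, 27.2 and 40.9 CPM in shPTBP1 1, 2 and 3, against 34.1, 23.6 and 19.6 CPM in shControl 1, 2 and 3. The libraries ranked in the same order for HMOX1 as for FTL, with shPTBP1 3 first, shControl 1 next and shControl 3 last; this likeness was noticed in the values and was not tested. HMOX1 gave a log2 fold change of 0.30 (SE 0.26, adjusted p = 0.966 in edgeR), which was 0.07 without shPTBP1 3, 0.55 without shControl 1 and -0.09 within the libraries numbered 1 and 2.

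ACSL4 encodes an acyl-CoA synthetase that loads polyunsaturated fatty acids for insertion into phospholipids, the substrates of ferroptotic peroxidation, and lies on chromosome X from 109624244 to 109733403. It had 113, 102 and 89.0 CPM in shPTBP1, against 80.0, 88.4 and 105 CPM in shControl. The ranges of the groups overlapped, with shPTBP1 3 and shControl 3 on the far side of their groups. ACSL4 gave a log2 fold change of 0.15 (SE 0.14, 95% interval -0.18 to 0.49, adjusted p = 0.974 in edgeR). With number 3 of both groups left out it was 0.35 (adjusted p = 0.213 in edgeR).

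**Figure D3:**
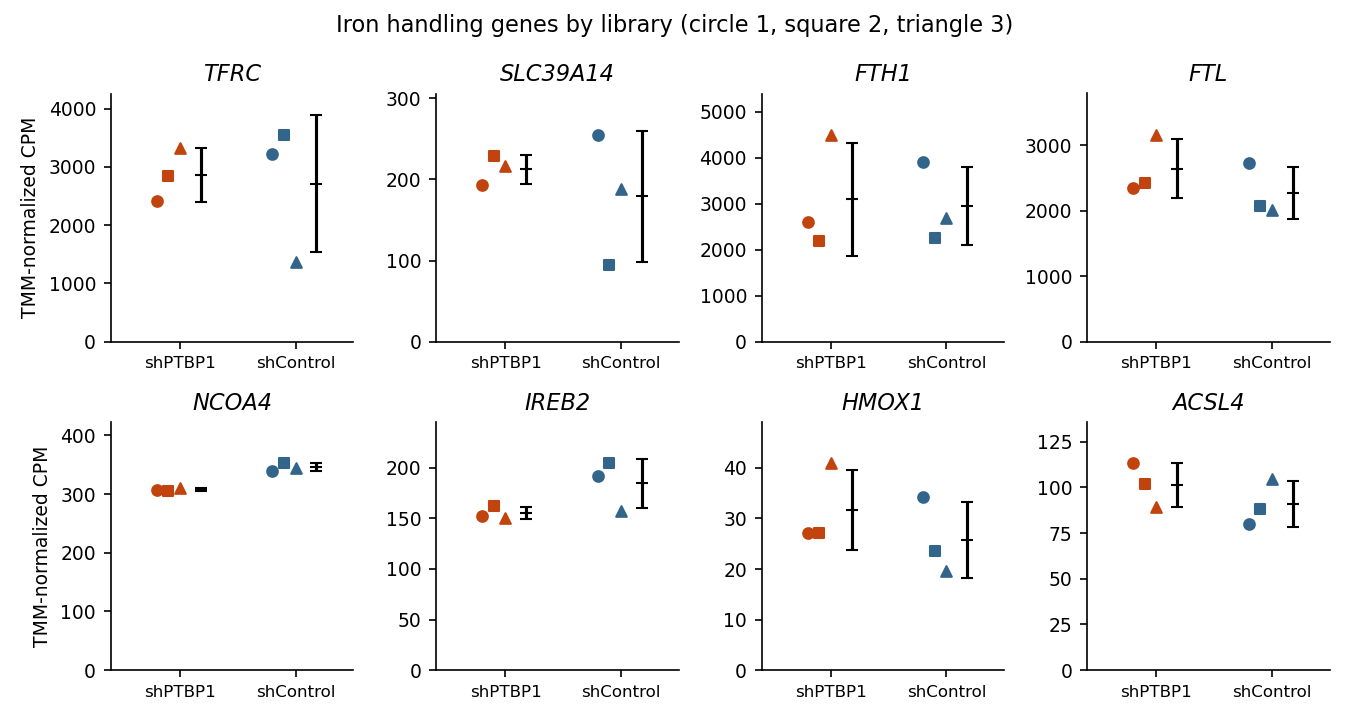
TMM-normalized CPM (axis from 0) of 8 iron handling genes, with shPTBP1 left of shControl, 1 point per library (circle 1, square 2, triangle 3) and mean ± SD (n = 3) beside the points. NCOA4 is the 1 gene without overlap, and single libraries stand apart in TFRC (shControl 3, 1365 CPM) and SLC39A14 (shControl 2, 94.2 CPM).

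A further 75 genes of iron handling and ferroptosis, set in 8 lists by role, were taken from the same fit. Of these, 66 were tested and edgeR called 0 at an adjusted p under 0.05, the smallest being 0.202. At an unadjusted p under 0.05 there were 2 with higher and 2 with lower levels in shPTBP1, 4 of 66, beside the 5.69% of all genes tested. DESeq2 called 1 after adjustment (VDAC2), of 74 to which it gave an unadjusted p, beside 0.753% of all genes to which it gave an adjusted p (168 of 22297). The median log2 fold change of the 66 was -0.05, with 23 positive and 43 negative values, and the medians of the lists ran from -0.16 (mitochondrial iron and iron-sulfur clusters, 9 genes tested) to -0.01 (ferroptosis defence, 12 genes tested). The groups did not overlap in 6 of the 66, 3 with shPTBP1 above and 3 with shPTBP1 below, beside 11.9% of all genes tested.

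The 4 genes at an unadjusted p under 0.05 came from the list of lipid peroxidation in ferroptosis (VDAC2, VDAC3 and ACSL3) and from that of mitochondrial iron (CISD1). VDAC2, an outer membrane channel of mitochondria that the ferroptosis inducer erastin binds, had 181, 163 and 179 CPM in shPTBP1, against 117, 102 and 113 CPM in shControl. Every shPTBP1 library lay above every shControl library, at a log2 fold change of 0.65 (SE 0.10, unadjusted p = 0.000381, adjusted p = 0.202 in edgeR), and DESeq2 was the 1 alternative that called it (adjusted p = 0.00552). VDAC2, VDAC3 and CISD1 have listed pseudogenes to which reads could also be assigned, so their levels are uncertain to that extent. The related channel VDAC3 had 151, 180 and 176 CPM in shPTBP1, against 234, 216 and 188 CPM in shControl, a log2 fold change of -0.33 (unadjusted p = 0.0316, adjusted p = 0.826 in edgeR). ACSL3, which activates monounsaturated fatty acids, had 413, 421 and 385 CPM in shPTBP1, against 297, 256 and 290 CPM in shControl, again without overlap. The difference of ACSL3 was 0.53 on the log2 scale (SE 0.10, unadjusted p = 0.00110, adjusted p = 0.336 in edgeR). CISD1, an iron-sulfur protein of the outer mitochondrial membrane, had 70.9, 70.1 and 70.1 CPM in shPTBP1, against 91.2, 85.2 and 76.9 CPM in shControl, a log2 fold change of -0.26 (unadjusted p = 0.0375, adjusted p = 0.866 in edgeR). In VDAC3 and CISD1 the shPTBP1 libraries were all lower than the shControl libraries. LPCAT3, which inserts the products of ACSL4 into phospholipids, had 46.4 ± 1.67 CPM in shPTBP1 and 33.7 ± 11.7 CPM in shControl (SD, n = 3 each), with a log2 fold change of 0.46 and an adjusted p of 0.932 in edgeR.

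Of 12 genes of ferroptosis defence, edgeR called 0 at an adjusted p under 0.05 and 0 at an unadjusted p under 0.05. GPX4, the selenoprotein that reduces phospholipid hydroperoxides, had 71.5 ± 2.99 CPM in shPTBP1 and 72.0 ± 9.39 CPM in shControl (SD, n = 3 each). On the log2 scale the fold change was -0.01 with a 95% interval of -0.30 to 0.28. SLC7A11, the cystine importer, had 84.6, 101 and 155 CPM in shPTBP1 1, 2 and 3, against 199, 169 and 87.5 CPM in shControl 1, 2 and 3, a log2 fold change of -0.42 (SE 0.34, adjusted p = 0.960 in edgeR). AIFM2, or FSP1, which regenerates ubiquinol, had 32.7, 39.7 and 45.5 CPM in shPTBP1, against 57.8, 47.5 and 30.4 CPM in shControl, a log2 fold change of -0.20 (adjusted p = 0.979 in edgeR). In both genes shControl 3 lay at the low end with the shPTBP1 libraries and shControl 1 was the highest library.

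The remaining parts of the iron network showed levels but no called difference. ACO1, the other iron regulatory protein, was at a log2 fold change of -0.01 (95% interval -0.27 to 0.24), FBXL5, which targets IREB2 protein for degradation, at -0.02 (-0.29 to 0.25) and PCBP1, an iron chaperone for ferritin, at -0.03 (-0.32 to 0.25). SLC11A2, the endosomal iron transporter, was at -0.11, HMOX2, the constitutive heme oxygenase, at -0.17, and BACH1, a heme-sensing repressor, at 0.07. The adjusted p-values of these 6 genes in edgeR lay between 0.957 and 0.996. Products by which hepatocytes act on iron in the body were scarce. Transferrin (TF) had 0 to 11 counts per library in shPTBP1 and 0 to 4 in shControl and was not tested, ceruloplasmin (CP) reached 0.965 CPM in shPTBP1 and 1.63 CPM in shControl, and TFR2, the receptor through which hepatocytes sense transferrin, had 4.31 ± 0.468 CPM in shPTBP1 and 4.30 ± 0.249 CPM in shControl (SD, n = 3 each).

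**Figure D4:**
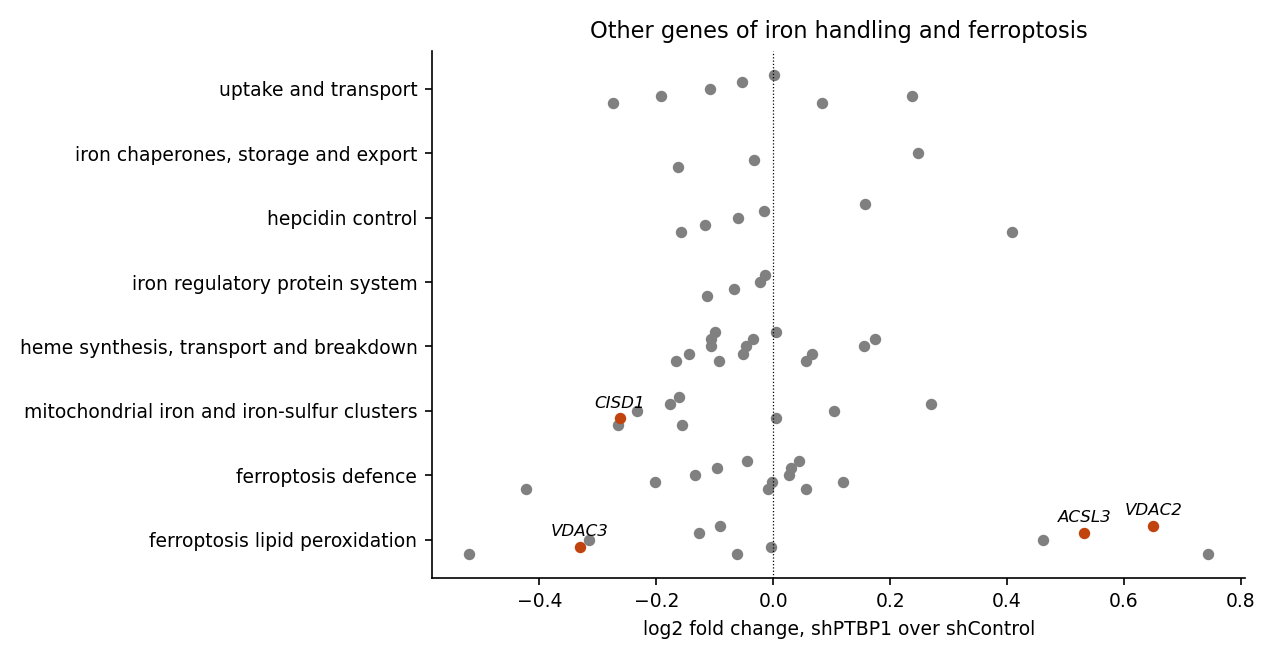
Log2 fold change (shPTBP1 over shControl, edgeR) of the 66 other iron handling and ferroptosis genes tested, 1 point per gene, in rows by list, with small vertical offsets only to keep points apart. The 4 coloured and named genes, VDAC2 (0.65), ACSL3 (0.53), VDAC3 (-0.33) and CISD1 (-0.26), had an unadjusted p under 0.05 and none of the 66 passed the adjusted threshold.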

How the data were processed

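The authors deposited FPKM and estimated counts per gene for the 6 libraries. These counts, although whole, were taken as estimates, because 32.5% to 34.4% of those from 1 to 40 were multiples of 4. The submitters' processing notes name cutadapt 1.9, FastQC, HISAT2 2.2.1, StringTie and the build hg38. The annotation release and use of strand are not given in the sources used here, and the study states no test for gene levels. The libraries were prepared from poly(A) RNA with dUTP labelling of the second strand.

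Gene-level tests used edgeR 4.0.16 under R 4.3.3, with TMM scaling, the filter on low counts and no covariates. Standard errors are the absolute log2 fold change divided by the square root of F. The test was checked on simulated data. Alternatives were DESeq2 1.42.0, limma 3.58.1 on log2(FPKM + 1), other scalings, filters and pseudocounts, a replicate block, number 3 as a covariate, numbers 1 and 2 only, counts divided by 4, and leaving out each library. Coordinates of genes are those of the deposited table; those of the elements come from GENCODE 29. Python 3.11.15 with pandas 2.3.3 and matplotlib 3.10.9 made tables and figures.

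The members, lists and rules were chosen with earlier results of these data known. Named were all 10 members, of each list up to 4 genes with the smallest unadjusted p under 0.05, and a fixed set of anchor genes, whatever their values.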

Additional observations from a re-analysis of the deposited data

How the results depend on the processing

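Under 17 other fits with edgeR, limma or DESeq2, 0 members passed the adjusted threshold (smallest adjusted p = 0.131 in edgeR, IREB2 without shControl 3). SLC40A1 was filtered out of some. In the main fit, relaxing the threshold to an unadjusted p under 0.05 gave 0 members and 4 other pathway genes. Some other fits gave more at that level, up to 3 members (ACSL4, TFRC and IREB2) and 17 of 67 pathway genes on numbers 1 and 2 only. There, 17.7% of all genes had an unadjusted p under 0.05 in edgeR. At the adjusted threshold, leaving out each library in turn gave 0 members and 0 pathway genes each time, and DESeq2 gave 1 pathway gene (VDAC2). Over all genes the count of calls was 6, against 168 in DESeq2, 63 on numbers 1 and 2 only, 2 to 5 without 1 of 5 libraries and 136 without shControl 3. NCOA4, IREB2 and ACSL4 kept their direction throughout. The direction of the other 6 members tested changed with the libraries kept. On the libraries numbered 1 and 2 only, log2 fold changes were -0.37 for TFRC, -0.36 for FTH1, -0.0070 for FTL and -0.090 for HMOX1. Without 1 library they ranged from -0.25 to 0.32 for TFRC, from -0.30 to 0.32 for FTH1, from -0.060 to 0.59 for SLC39A14 and from -0.089 to 0.89 for SLC40A1. The cause was not tested. With a replicate block on the library number, 0 members and 0 pathway genes passed, and over all genes the count was 0 in place of 6; the numbers share no stated pairing, deviations of same-numbered libraries correlated at -0.00909, 0.158 and 0.0832 across genes, and not every library correlated best with its own number. Precision is limited by 3 libraries per group and, for SLC40A1 and HAMP, by counts of 30 or fewer.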

Other observations

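Some genes of the iron lists separated the libraries by number or singly, and they are named here after their values were seen. STEAP3, an endosomal iron reductase, had 50.6, 17.9 and 19.6 CPM in shPTBP1 1, 2 and 3 and 47.3, 18.3 and 17.5 CPM in shControl 1, 2 and 3, so that number 1 was the highest library under both labels. HFE, a partner of transferrin receptors, had 15.5, 46.8 and 32.9 CPM in shPTBP1 and 15.9, 33.1 and 31.6 CPM in shControl, with number 1 the lowest under both labels. NFE2L2, which encodes the antioxidant regulator NRF2, had 51.0 CPM in shPTBP1 2 and 48.0 CPM in shControl 3, against 205 to 284 CPM in the other 4 libraries. SAT1, a polyamine acetyltransferase linked to lipid peroxidation, had 235 to 366 CPM in shPTBP1, against 168, 170 and 563 CPM in shControl 1, 2 and 3.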
